A study of Saccharomyces cerevisiae with 2 samples.

Results

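In the annotation used here, Saccharomyces cerevisiae has 60 nuclear tRNA genes with an intron, and 40 of them overlapped a Vid22 ChIP-seq peak. Of the 215 nuclear tRNA genes without an intron, 138 did. The 60 genes were chosen from the RefSeq annotation of the sacCer3 (R64) genome as nuclear genes of biotype tRNA with more than 1 exon. They are 60 of 275 nuclear tRNA genes and of 6431 annotated nuclear genes. The choice used no measured value. The 2 libraries were chromatin immunoprecipitations (ChIP) with the anti-MYC antibody 9E10 from a strain carrying Vid22-13Myc, in which the DNA-binding protein Vid22 has a MYC epitope tag, and from a wild-type strain with no tag as the control. The control's label lists its antibody as none, so the antibody used in it is not settled by the sources used here. Both cultures were grown in YEP medium and cross-linked with formaldehyde, and each library pooled the DNA of 2 ChIP experiments, so there was 1 library per strain and no replicate. The peak list was 1 set of 811 peaks called on the Vid22-13Myc library against the control. The study went on to apply a stricter threshold on the false discovery rate than the deposited list does. Of the 811 peaks, 413 had a −log10 q of at least 10. These overlapped 39 of the 60 intron-containing genes and 124 of the 215 intronless nuclear tRNA genes. The control's own profile and the read totals were not analysed here.

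RNA polymerase III transcribes tRNA genes from promoter elements that lie inside the gene. The A box and the B box are bound by TFIIIC, which places TFIIIB just upstream of the gene, and TFIIIB recruits the polymerase. In yeast the intron of a tRNA gene always follows the base next to the anticodon, between the A box and the B box. The Sen endonuclease cuts the intron out of the precursor, the ligase Trl1 joins the exons and the phosphotransferase Tpt1 removes the phosphate left at the junction. Several of these genes carry names from genetics, since mutant alleles read stop codons (SUP genes) or correct frameshifts (SUF genes).

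The 60 genes belonged to 10 anticodon families of 8 amino acids. The anticodon was read from the sequence, as the bases that end 1 base before the intron. In each family the gene with the highest enrichment among those with a peak is printed here from the RefSeq R64 genome, on its own strand, with the intron in capitals, to show how far the intron moves the internal promoter elements apart.
YNCL0033C (Ile-UAU, chrXII:605300-605432, minus strand): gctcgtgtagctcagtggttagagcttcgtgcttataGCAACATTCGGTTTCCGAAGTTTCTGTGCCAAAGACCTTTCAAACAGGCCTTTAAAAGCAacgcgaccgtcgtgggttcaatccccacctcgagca
SUP54 (Leu-CAA, chrVII:423092-423205, plus strand): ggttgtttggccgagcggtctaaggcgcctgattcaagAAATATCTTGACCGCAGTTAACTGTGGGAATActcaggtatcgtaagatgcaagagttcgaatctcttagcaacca
YNCL0032C (Leu-UAG, chrXII:592519-592619, minus strand): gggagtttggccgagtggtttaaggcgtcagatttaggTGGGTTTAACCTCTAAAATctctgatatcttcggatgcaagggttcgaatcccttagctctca
YNCG0004W (Lys-UUU, chrVII:115488-115583, plus strand): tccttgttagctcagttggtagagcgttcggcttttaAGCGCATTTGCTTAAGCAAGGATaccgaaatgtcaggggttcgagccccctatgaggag
YNCH0010C (Phe-GAA, chrVIII:358478-358569, minus strand): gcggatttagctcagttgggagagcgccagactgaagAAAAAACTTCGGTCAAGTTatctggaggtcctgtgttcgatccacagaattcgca
SUF8 (Pro-UGG, chrVIII:388893-388995, minus strand): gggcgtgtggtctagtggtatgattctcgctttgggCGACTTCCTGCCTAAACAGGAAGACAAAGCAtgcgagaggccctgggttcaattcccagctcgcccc
SUP61 (Ser-CGA, chrIII:227942-228042, plus strand): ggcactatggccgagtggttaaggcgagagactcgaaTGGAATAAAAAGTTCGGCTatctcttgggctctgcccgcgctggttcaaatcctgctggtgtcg
YNCO0008W (Ser-GCU, chrXV:274673-274773, plus strand): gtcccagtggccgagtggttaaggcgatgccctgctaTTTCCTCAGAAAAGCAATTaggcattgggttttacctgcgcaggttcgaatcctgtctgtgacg
YNCG0009C (Trp-CCA, chrVII:287350-287455, minus strand): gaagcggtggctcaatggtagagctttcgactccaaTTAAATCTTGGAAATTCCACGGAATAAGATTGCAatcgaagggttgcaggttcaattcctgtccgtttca
SUP3 (Tyr-GUA, chrXV:288192-288280, plus strand): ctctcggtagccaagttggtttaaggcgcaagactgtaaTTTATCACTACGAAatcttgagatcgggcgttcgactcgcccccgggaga

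The introns ran from 14 bp in the Tyr-GUA genes to 60 bp in the Ile-UAU genes. An A box (TNGNNNANN on the gene strand, within the first 20 bases) was found in 60 of 60 genes and a match started at base 8 in all of them. The 2 Ile-UAU genes also matched from base 3, and there the first match was used. A B box (GTTCNANNC on the gene strand, after the intron) was also found in 60 of 60. Where both boxes were searched in the same way in intronless genes, the A box was found in 214 of 215 and the B box in 210 of 215. The starts of the boxes lay a median of 73 bp apart in intron-containing genes (61 to 110 bp, the highest being that of the Ile-UAU genes, or 105 bp from base 8) and a median of 45 bp apart in intronless genes (43 to 72 bp). The serine gene YNCD0024C is annotated without an intron and was counted as intronless. It is 100 bp long with its boxes 72 bp apart, as is the Ser-GCU gene YNCL0039W. A sequence match is a description and not a bound site.

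The first comparison asked which of these genes lay in a Vid22 peak. Of the 60 intron-containing genes, 40 shared at least 1 bp with a peak, or 66.7% (95% Wilson interval 54.1 to 77.3%). Of the 215 intronless nuclear tRNA genes, 138 did, which gives a background of 64.2% (57.6 to 70.3%). Of the 6156 other nuclear genes, which are on the whole much longer, 774 did, or 12.6%. The share of intron-containing genes in peaks was thus near that of intronless tRNA genes. These intervals cover the counting of genes only, and genes of a family share sequence and are not independent. All 40 genes lay whole inside their peak, and 40 different peaks held them.

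The peaks over intron-containing genes were mostly short and of moderate height. MACS2, the peak caller used in the study, gives for each peak the fold enrichment of Vid22-13Myc over control at the summit, the highest base of the peak. That fold had a median of 2.01 over the 40 genes (95% interval of the median 1.90 to 2.13, range 1.35 to 5.39). Over the 138 intronless genes its median was 1.81 (1.78 to 1.86), and over all 811 peaks it was 1.64. A fold of 2 or more was reached at 22 of 40 intron-containing genes and at 31 of 138 intronless genes. The difference between the medians was 0.198 in fold units, and the intervals of the medians did not overlap. Those intervals treat genes as independent, which identical copies and genes that share a peak are not. With 1 library per strain the difference has no replicate check. The genes of both groups also differ in length and in unique sequence, whose part in the difference was not tested.

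The q-values, the p-values that MACS2 adjusts for multiple testing, differed in the same direction. They come from the same 2 libraries as the folds and are not separate evidence. The median −log10 q was 25.6 at intron-containing genes (6.54 to 230.4) and 17.8 at intronless genes (4.03 to 284.0). When only peaks with a −log10 q of at least 20 were counted, 29 of 60 intron-containing genes kept one, or 48.3% (95% Wilson interval 36.2 to 60.7%). Of the intronless genes 52 of 215 did, a background of 24.2% (18.9 to 30.3%). The similar shares in the whole peak list therefore held for that list and not for its strongest peaks. The highest value of each group, at SUP3 and at the intronless gene YNCG0003C, belonged to a long peak with its summit far from the gene. The part of gene length and unique sequence was not tested here either.

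In 8 of the 10 anticodon families some genes had a peak and others had none. The 3 Ser-GCU genes and the single Ser-CGA gene, SUP61, all had one. Trp-CCA followed with 5 of 6 genes, Lys-UUU with 5 of 7, Phe-GAA and Pro-UGG with 7 of 10 each, Leu-UAG with 2 of 3 and Tyr-GUA with 5 of 8. Ile-UAU had 1 of 2 genes with a peak and Leu-CAA 4 of 10. With so few genes the intervals of all families overlapped: that of Leu-CAA was 16.8 to 68.7% and that of Trp-CCA 43.6 to 97.0%.

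The folds of most families overlapped, but not of all: the Trp-CCA genes (1.76 to 2.01) lay below the Leu-UAG genes (2.13 and 2.16). That pair holds only 5 and 2 genes with a peak and was not tested. The highest fold of all was that of the Tyr-GUA gene SUP3, 5.39, and its summit lay far outside the gene, as described further on. The other Tyr-GUA genes had 2.44 at SUP8, 2.17 at SUP11, 1.90 at SUP4 and 1.88 at SUP6. SUP3 apart, the highest fold was 2.71 at the Lys-UUU gene YNCG0004W, and the lowest, 1.35, was at another Lys-UUU gene, YNCG0029C. Lys-UUU thus held both ends of the range among genes with peaks of at most 1000 bp. The low end, however, is the fold of a peak shared with another tRNA gene. Its summit lay outside YNCG0029C, as also described further on.

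The Ser-GCU gene YNCO0008W had a fold of 2.47, the Pro-UGG gene SUF8 2.39 and the Lys-UUU gene YNCK0021W 2.38. The remaining families were led by SUP54 (Leu-CAA) with 2.24, YNCH0010C (Phe-GAA) with 2.24, YNCL0033C (Ile-UAU) with 2.20, YNCL0032C (Leu-UAG) with 2.16 and YNCG0009C (Trp-CCA) with 2.01. SUP61, the only gene of the annotation with its anticodon, had a fold of 1.94. At the low end stood YNCM0019W (Phe-GAA) with 1.61, SUF9 (Pro-UGG) with 1.65, and YNCN0006W (Phe-GAA) and YNCO0031W (Pro-UGG) with 1.71 each. Of the 40 genes, 38 lay in peaks whose fold was above the median of the whole list, SUP3 among them. Among intronless genes with a peak, 110 of 138 did.

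**Figure D1:**
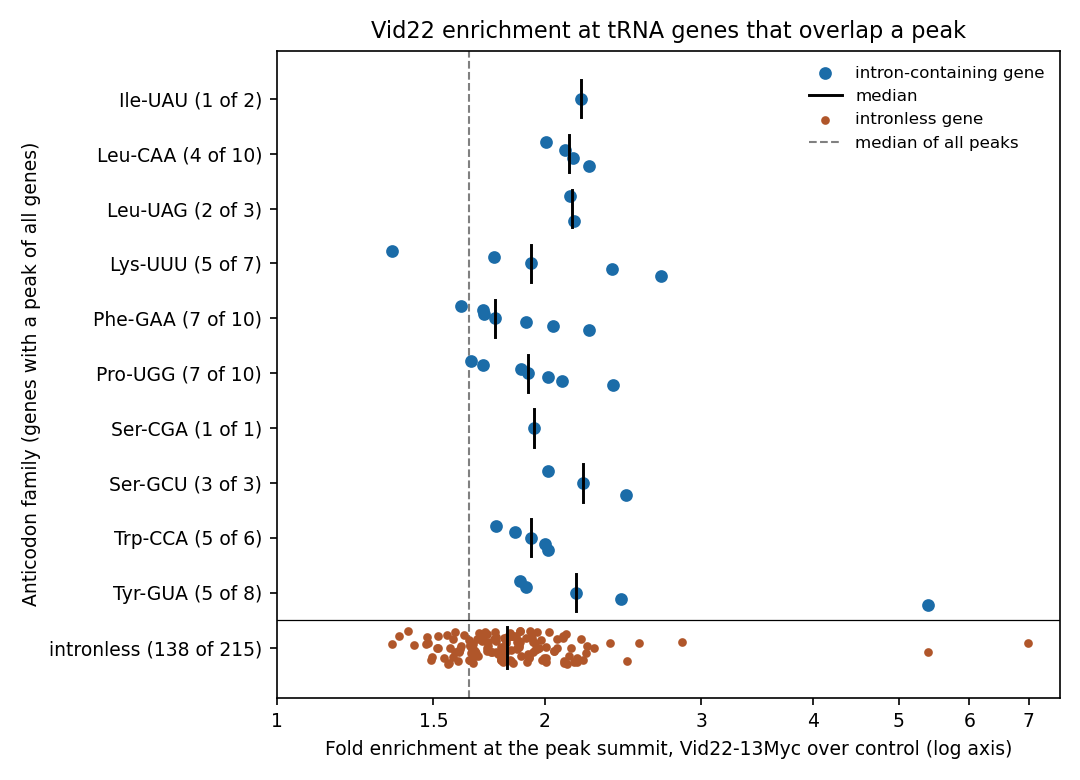
Fold enrichment at the peak summit (log axis, Vid22-13Myc over control) for each intron-containing tRNA gene with a peak, by anticodon family, with the intronless tRNA genes in the bottom row; black bars are medians, the dashed line is the median of all 811 peaks, and there is 1 library per strain, so no error is drawn. Apart from SUP3 at 5.39, the intron-containing genes sit between 1.35 and 2.71, and most, though not all, families overlap each other.

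Genes of identical sequence were compared for whether they had a peak. The 60 genes had 29 distinct sequences, intron included. Of these, 10 occurred in more than 1 copy and covered 41 genes, of which 25 had a peak. In 9 of the 10 sets some copies had a peak and others did not. Of all 60 genes 66.7% had a peak, and at such a share sets of a few copies are often mixed. The part of sequence was not tested. Of the 6 identical Leu-CAA genes 2 had a peak, of the 6 identical Lys-UUU genes 4, of the 6 identical Phe-GAA genes 4 and of the 6 identical Trp-CCA genes 5. SUP3 and SUP4 had a peak, that of SUP3 with its summit far outside the gene, and SUP2, of the same sequence, had none. SUP6, SUP8 and SUP11 had a peak, and SUP5 and SUP7, again of the same sequence, had none. Only the identical Ser-GCU genes YNCF0009C and YNCO0008W both had one. Among the 19 genes whose sequence occurred once, 15 had a peak.

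No peak was found at the Ile-UAU gene YNCD0017W, the Leu-UAG gene YNCL0037W, the Lys-UUU genes YNCD0003W and YNCP0017C, the Phe-GAA genes YNCD0023C, YNCP0008C and YNCP0011C, the Pro-UGG genes SUF7, YNCN0009W and YNCN0011W, the Trp-CCA gene YNCK0010W and 6 Leu-CAA genes, beside SUP2, SUP5 and SUP7. These 20 genes were not near misses in position. Their nearest peak lay a median of 10110.5 bp away, from 961 bp at SUP7 to 30975 bp at YNCD0017W. The list gives no value for a gene outside a peak, so a weaker enrichment at these genes was not measurable from it.

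The summits were placed next, to see where along the gene the enrichment was highest. Of the 40 summits, 38 lay inside the gene or within 20 bp of it, as did 114 of 138 at intronless genes. Relative to the first base of the gene on its own strand, the median position was +33 bp (95% interval of the median 2 to 68). Among the 29 genes in a peak with a −log10 q of at least 20 it was +8 bp. Upstream of the gene lay 12 summits, in exon 1 9, in the intron 4, in exon 2 7 and downstream 8. Thus 20 of 40 summits fell inside an intron-containing gene, against 32 of 138 inside an intronless gene, which is a shorter target.

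The places differed from gene to gene, and 1 summit of each kind is shown with 30 bases on both sides, so that the middle base is the summit. The gene with the highest fold of each kind was taken, SUP3 apart, on the gene strand of the RefSeq R64 genome, with bases of the gene in capitals.
YNCO0008W (upstream, chrXV:274632-274692, plus strand): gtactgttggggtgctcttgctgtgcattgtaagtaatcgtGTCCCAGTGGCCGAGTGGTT
YNCG0004W (exon 1, chrVII:115458-115518, plus strand): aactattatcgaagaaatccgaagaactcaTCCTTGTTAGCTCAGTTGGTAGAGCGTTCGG
YNCL0032C (intron, chrXII:592548-592608, minus strand): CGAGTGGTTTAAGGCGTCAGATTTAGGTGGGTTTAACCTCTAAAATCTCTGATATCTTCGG
SUF8 (exon 2, chrVIII:388863-388923, minus strand): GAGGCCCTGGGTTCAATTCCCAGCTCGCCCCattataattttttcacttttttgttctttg
SUP8 (downstream, chrXIII:838002-838062, plus strand): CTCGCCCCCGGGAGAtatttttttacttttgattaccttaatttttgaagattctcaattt

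YNCO0008W had its summit 11 bp before the gene, and YNCG0004W on the first base of the gene. In YNCL0032C the summit lay in the intron, 41 bp into the gene. In SUF8 it was the last base of exon 2, and in SUP8 it lay 16 bp beyond the gene, beyond a run of T, the kind of sequence at which RNA polymerase III is known to terminate. The 4 summits in an intron were those of YNCL0032C, YNCD0031C (Leu-CAA), SUF9 and YNCO0031W (both Pro-UGG).

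**Figure D2:**
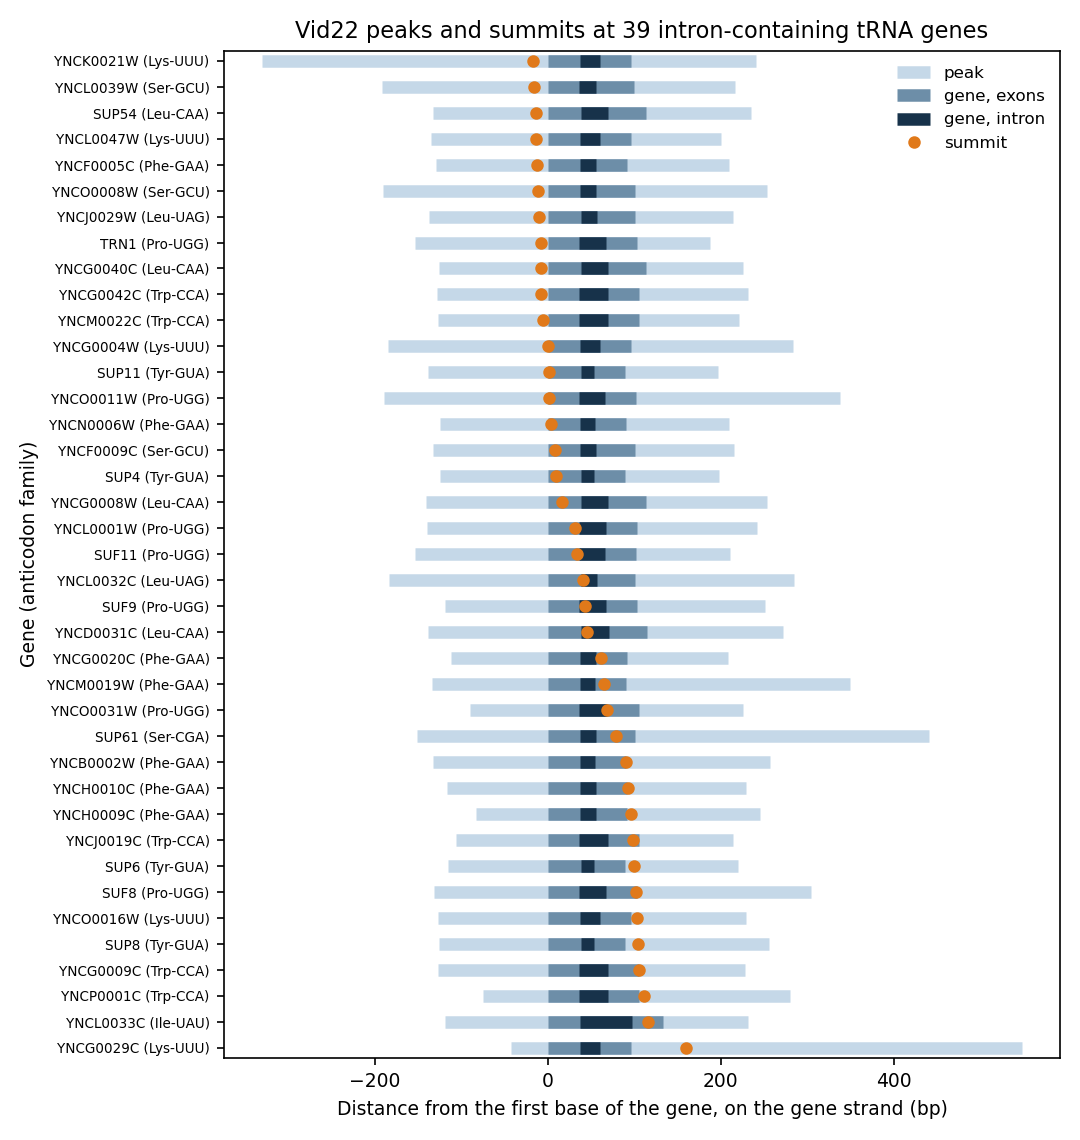
Peak (light), exons (mid) and intron (dark) of the 39 intron-containing tRNA genes with a peak of at most 1000 bp, 1 gene a line, against distance from the first base of the gene on its strand (bp), with the summit as an orange dot and genes sorted by it. The summits lie inside the gene in 20 of the 39 and otherwise just outside it, except at YNCG0029C, while the peaks reach to similar distances on both sides.

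The peaks were about as wide on both sides of the gene. They ran a median of 132.5 bp upstream and 132 bp downstream of it. Their length had a median of 358 bp (95% interval of the median 348 to 390), against 352 bp at intronless genes and 489 bp over all peaks. The shortest were 316 bp at YNCO0031W and 320 bp at YNCG0020C and YNCJ0019C, and 316 bp was also the shortest of the whole list. The longest were 7336 bp at SUP3, 592 bp at SUP61 and 590 bp at YNCG0029C. SUP3 apart, no peak over an intron-containing gene was longer than that of SUP61.

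Both genes whose summit lay more than 20 bp away shared their peak with another tRNA gene. The peak of SUP3 (chromosome XV, 281961 to 289296) also held the glycine tRNA gene SUF17 and reached into 4 protein-coding genes, DIS3, TAT2, YOL019W-A and TOS7. Its summit lay between the starts of DIS3 and TAT2, 2537 bp upstream of SUP3, so its fold of 5.39 is not a measure at the tRNA gene. The peak of YNCG0029C (chromosome VII, 700501 to 701090) also held the leucine tRNA gene YNCG0028W on the other strand. Its summit lay between the 3′ ends of both genes, 65 bp beyond YNCG0029C and 132 bp beyond YNCG0028W. The next farthest summits were 17 bp from YNCK0021W and 16 bp from YNCL0039W and from SUP8.

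Summit positions moved with how much unique sequence a gene holds. The study aligned reads of 50 bases with a setting (-m 1) that, as the aligner works, drops reads with more than 1 reportable place. The reads that are kept come from 50-mers that occur once in the genome, counted here for exact matches. Peak callers extend reads towards the fragment length, so a base can also be covered from unique sequence beside it. Of the 40 genes with a peak, 20 had no unique 50-mer over their middle, and these too lay whole inside their peak. Of the 20 genes without a peak, 12 had no unique 50-mer there. Of the 50 50-mers over the middle base of a gene, a median of 0.5 were unique in intron-containing genes with a peak and 18 in intronless ones. At the summits themselves the median was 49 of 50 and the lowest 18. The summits thus lay on bases that unique 50-mers covered, also in genes whose middle they did not.

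Among the 39 genes with a peak of at most 1000 bp, 26 had at most 4 unique 50-mers over their middle and 13 had at least 21. In the 26 genes the summit lay a median of 56.75 bp from the middle of the gene (16.5 to 70.5 bp), and 25 of them had it within 20 bp of a gene end. In the 13 genes it lay a median of 20 bp from the middle (8 to 112.5 bp, the last being YNCG0029C), and 12 of them had it inside the gene. In the 20 genes with a peak and no unique 50-mer over the middle, no summit was nearer than 42 bp. Across the 39 genes Spearman's rho between unique 50-mers over the middle and the distance was −0.65 and Pearson's r −0.52, as descriptions. Across the 133 intronless genes with such peaks they were −0.27 and −0.11. Intronless genes, split at 8 unique 50-mers, showed a weaker division. Their upper group reached down to 10 unique 50-mers, so the groups of both kinds are not alike. In the 113 of them with over 8 unique 50-mers over the middle, the summit lay a median of 42 bp from the middle, 89 had it within 20 bp of a gene end and 26 inside the gene. In the 20 with at most 8, the median was 51.5 bp, 15 had it within 20 bp of an end and 5 inside. The distances of intronless genes thus differed in the same direction, but less. The part of unique sequence in the summit positions was not tested.

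**Figure D3:**
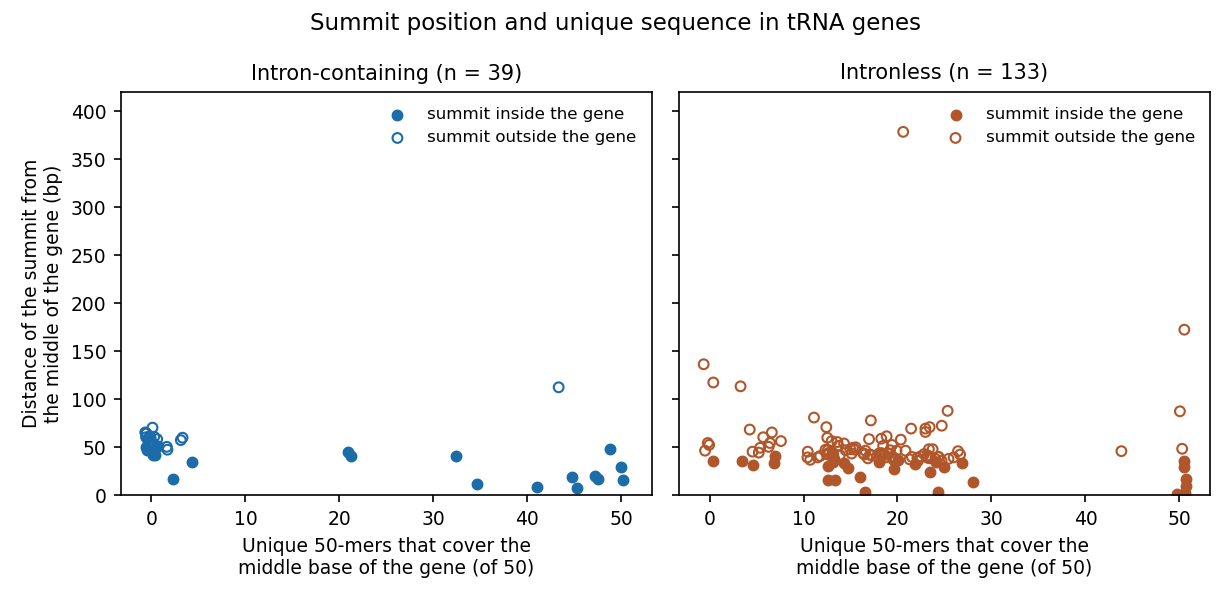
Distance of the summit from the middle of the gene (bp) against the number of unique 50-mers over the middle base, for 39 intron-containing (left) and 133 intronless (right) tRNA genes with a peak of at most 1000 bp; filled points have the summit inside the gene, and points are shifted sideways by less than 1 for display. The intron-containing genes form a group at the left edge with summits far from the middle and a second group with summits mostly near it.

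Genes with and without a peak were also compared by unique sequence. Of the 44 intron-containing genes with at most 8 unique 50-mers over the middle, 27 had a peak, and of the other 16, 13 had one. Intronless genes went in the other direction, with 21 of 29 and 117 of 186. These counts were not tested. The share of unique 50-mers among those overlapping the gene had a median of 60.6% in genes with a peak and 57.7% in genes without. SUP61 and YNCD0023C were the members in which all overlapping 50-mers were unique. SUP61 had a peak, with its summit in exon 2, and YNCD0023C, a Phe-GAA gene, had none within 14527 bp.

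The neighbourhood of tRNA genes in yeast is known for Ty retrotransposons, which insert upstream of genes transcribed by RNA polymerase III. Of the 6 intron-containing genes within 500 bp of an annotated Ty element, 1 had a peak, YNCP0001C (Trp-CCA). The other 5 were YNCD0017W, SUP53, YNCD0023C, SUF7 and YNCN0011W. Of the 54 genes farther away or on a chromosome with no such element, 39 had a peak, or 72.2% (95% Wilson interval 59.1 to 82.4%). Intronless genes showed the same direction, with 9 of 29 near a Ty element and 129 of 186 farther away. Solo and flanking long terminal repeats lay within 500 bp of 34 intron-containing genes, of which 20 had a peak, and 20 of the other 26 had one. Intronless genes were close to this, with 80 of 138 near a repeat and 58 of 77 farther away. The reference strain's Ty elements need not all be present in the strain used, and Ty sequence is itself repeated, whose part in these counts was not tested.

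Protein-coding neighbours were close. The nearest coding gene upstream lay a median of 812 bp from genes with a peak and 1024 bp from genes without, and the nearest downstream a median of 325.5 bp from genes with a peak and 291 bp from genes without. For intronless genes with and without a peak these medians were 889 and 837 bp upstream, and 310 and 281 bp downstream. Of the 40 peaks, 33 reached into no coding gene, 6 into 1 coding gene and that of SUP3 into 4. In 28 of 40 cases the start of the upstream coding gene was the end that faced the tRNA gene, and in 12 of 20 genes without a peak. For intronless genes this held in 71 of 138 with a peak and 42 of 77 without. At YNCG0004W the upstream neighbour was KEX1 and the downstream one ARO8, and at YNCO0008W they were MIM1 and LAG2. The short peaks thus mostly covered the tRNA gene and the intergenic sequence beside it.

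The genes with and without a peak were unevenly spread over the chromosomes. On chromosomes VI, VII, VIII and XV all 22 intron-containing genes had a peak, namely 5, 8, 3 and 6. On chromosomes IV, XIV and XVI only 3 of 13 did, 1 of 5, 1 of 4 and 1 of 4. Both groups of chromosomes were picked after these counts were seen and are given without a test. Intronless genes on the first group had peaks in 35 of 55 cases and on the second in 25 of 46. Chromosome XIV was low in both kinds, with 1 of 4 intron-containing and 1 of 10 intronless genes, and it held 22.9 peaks per Mb, the fewest of the 16 chromosomes. Chromosome IV had 15 of 23 intronless genes with a peak, so its low count was not shared by them.

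**Figure D4:**
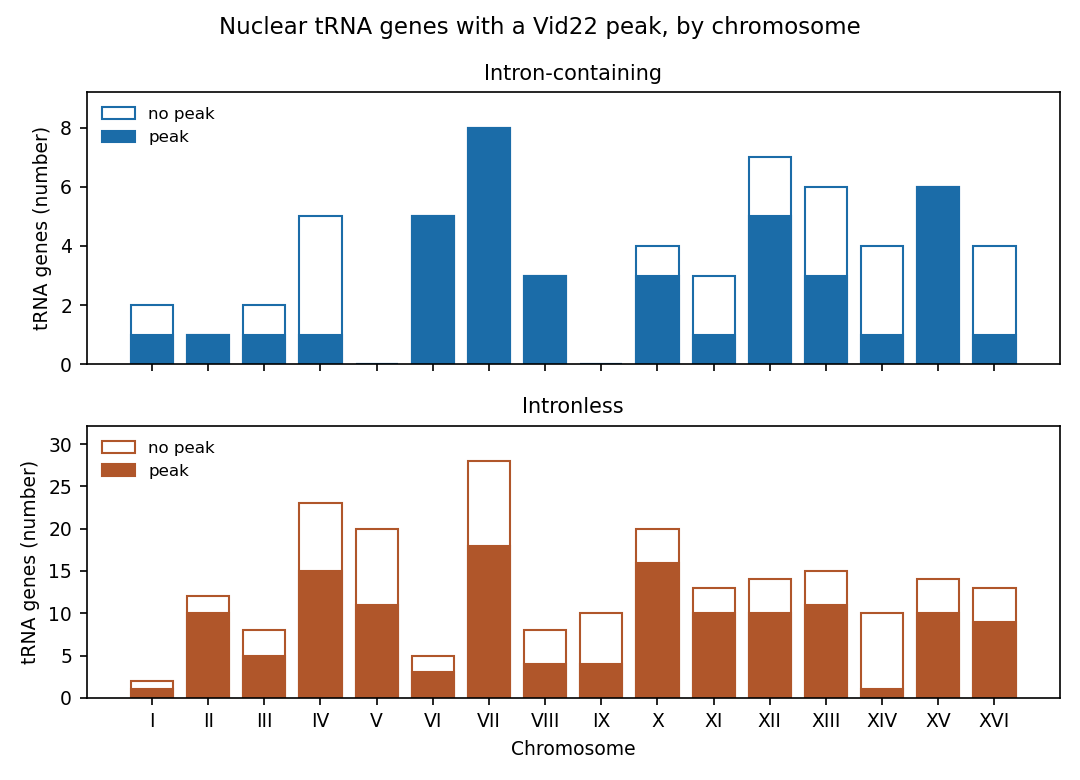
Number of intron-containing (top) and intronless (bottom) tRNA genes on each chromosome, with the filled part of a bar for genes with a Vid22 peak and the open part for genes without. All intron-containing genes on VI, VII, VIII and XV are filled, and chromosome XIV has 1 filled gene in each panel.

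Sequence around the summit was searched for TAGGG on both strands, the core of the repeat bound by Tbf1, a known partner of Vid22. It occurred within 100 bp of 8 of the 40 summits at intron-containing genes, among them those of YNCG0004W, YNCG0029C, YNCH0010C, SUP8 and SUP3. It occurred at 24 of 138 summits at intronless genes (17.4%), at 25.6% of all peaks and around 14.3% of all genome positions. The share at these genes thus lay between those of the genome and of all peaks.

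The other genes of the pathway were looked up in lists. None of the 6 TFIIIC subunit genes (TFC1, TFC3, TFC4, TFC6, TFC7 and TFC8), none of the 3 TFIIIB genes (BRF1, BDP1 and SPT15) and not MAF1, the repressor of RNA polymerase III, overlapped a peak. Of the 6 tRNA splicing genes 1 did, SEN2, a catalytic subunit of the endonuclease, with a fold of 1.65 and a summit at −276 bp relative to the gene start. SEN15, SEN34, SEN54, TRL1 and TPT1 did not. These are protein-coding genes, to be read against the 12.6% of other nuclear genes.

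Among the 11 other genes transcribed by RNA polymerase III, 4 had a peak. SNR6, which encodes the U6 spliceosomal RNA, had a fold of 1.75, with the summit inside the gene. SNR52, a guide RNA for methylation, had 1.63, RPR1, the RNA of RNase P, 1.48, and SCR1, the RNA of the signal recognition particle, 1.23. RNA170 and the 6 annotated 5S rRNA genes had none, and the 5S genes lie in the repeated ribosomal DNA. All 4 values lay below the median of the intron-containing tRNA genes, 2.01.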

How the data were processed

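ChIP-seq reads of 50 bp from 1 Vid22-13Myc and 1 untagged control library were aligned by the authors with Bowtie to sacCer3, with a setting (-m 1) that, as the aligner works, drops reads with more than 1 reportable place. Duplicates were removed with SAMtools and peaks were called with MACS2 against the control. Tool versions are not given in the sources used here. The deposited list holds, for each of 811 peaks, the interval, the summit, a score, the fold at the summit as a ratio over control, and −log10 p and −log10 q. The deposited score is an integer display value of the caller and was not used. The list gives no read counts, so the depth is unknown and no interval for a fold could be computed.

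Genes, introns, Ty elements and long terminal repeats came from the RefSeq R64 annotation. Each gene took the overlapping peak (at least 1 bp) with the summit nearest to its middle. Unique 50-mers were counted in the R64 genome on both strands, as exact matches. Shares have 95% Wilson intervals and medians have exact binomial intervals (Python 3.11.15, scipy 1.17.1). The assignment was tested on simulated data. With 1 library per strain there was no test between groups. Alternatives were thresholds on q, other overlaps, unique sequence and peak length. The genes and lists were chosen with earlier results of these data known. Named genes were the highest fold per family, the 5 highest and 5 lowest folds, the 3 longest and 3 shortest peaks, the 5 farthest summits, genes without a peak in families with at most 5 of them, and genes of fully unique sequence. Genes outside this rule illustrate identical copies, box distances, introns with a summit and neighbours, and were chosen after their values were seen.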

Additional observations from a re-analysis of the deposited data

How the results depend on the processing

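Of the 40 alternative values computed, 39 stayed within 1.5 times the reported count or within the 95% interval of the reported median. The exception was the number of intronless genes in a peak, which was 52 in place of 138 with peaks of −log10 q of at least 20, since most of their peaks lie under that threshold, while intron-containing genes had 29 in place of 40. Under the other settings intron-containing genes in a peak numbered 39 or 40. A setting that left out genes within 500 bp of a Ty element was added after seeing the data and gave 39 of 54. The median fold of intron-containing genes ran from 2.01 to 2.11, the median peak length from 355.5 to 365 bp and the median summit position from 8 to 33 bp, the 8 bp being that of the peaks with a −log10 q of at least 20. No paired analysis was possible because each strain had 1 library. Enrichment below the caller's threshold and differences between cultures could not be measured from the list.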

Other observations

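Predicted G-quadruplex elements (found on either strand as 4 runs of GGG that 1 to 25 bases separate) lay within 1000 bp of 6 of the 40 intron-containing genes with a peak, YNCL0033C, YNCL0047W, YNCB0002W, YNCL0001W, YNCF0009C and YNCL0039W, and of 0 of the 20 without. Among intronless genes they lay that near to 6 of the 138 with a peak and 3 of the 77 without. Annotated replication origins lay within 500 bp of 3 of the 40 intron-containing genes with a peak, YNCD0031C, SUP11 and SUP8, and of 1 of the 20 without, YNCN0011W. Among intronless genes, origins lay that near to 12 of the 138 with a peak and 7 of the 77 without. These counts are small and were not tested.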
